A study of Mus musculus with 4 samples.

Results

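The genes described here encode the degradative and acidifying machinery of the lysosome: 51 listed genes for lumenal proteases, glycosidases, sulfatases, lipid hydrolases and their activators, lysosomal membrane proteins, subunits of the vacuolar proton pump, 2 transcription factors, lysozyme and progranulin. They were taken by gene symbol from the platform annotation, and each was read from its brightest single-gene probe set by the mean over 4 arrays. Of the 51 genes, 50 had such a probe set and Atp6v0c, the proteolipid ring subunit of the pump, is not analysed here. The 50 measured genes are part of 18193 genes named on the array, and all 50 lay above the level floor of 6.39 on every array, a floor that 12767 genes reached on at least 1 array.

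The cells were macrophages drawn into the mouse peritoneal cavity with thioglycolate, an irritant, and cultured on slides for 18 hours. The 4 groups, with 1 array each, were macrophages labelled Dap12-KO with interleukin-4 (IL-4, a cytokine of alternative activation), macrophages labelled Dap12-KO untreated, wild type with IL-4 and wild type untreated. Dap12-KO refers to loss of the signalling adaptor DAP12, encoded by Tyrobp, and the study asked how this loss changes expression at rest and after IL-4. Strain, age and the number of mice behind an array are not given in the sources used here. With 1 array per group there is no replicate check on any difference between 2 arrays, and such differences are given as values with no test. In whole-culture RNA, fewer cells of a type and less RNA per cell cannot be told apart.

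Lysosomes break down proteins, glycans and lipids that reach them by endocytosis, phagocytosis and autophagy. Their hydrolases work in an acid lumen, which the vacuolar ATPase maintains by pumping protons: its V1 sector in the cytosol hydrolyses ATP and its V0 sector in the membrane carries the protons. Many of these genes share a promoter element, the CLEAR element, an E-box that transcription factors of the TFEB, TFE3 and MITF family bind. Macrophages are among the cell types richest in lysosomes.

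Promoter windows of GRCm38.p6 from RefSeq, running from 250 bases before to 50 bases after an annotated start, were found for 44 of the 51 genes, in 52 windows. The E-box core CACGTG stood in a window of 16 of the 44 genes, or 36.4%, against 11.4% of 10316 genes above the floor that have a window. With a flanking T on at least 1 strand (TCACGTG or its reverse complement CACGTGA, which contain the core) it stood in 14 of 44 genes, or 31.8%, against 6.62%. The full palindrome TCACGTGA, which contains both shorter forms, stood in 6 of 44 genes, or 13.6%, against 2.05%. Counted over windows, the flanked form was in 26.9% of the 52 windows of listed genes and in 5.56% of 13160 windows of genes above the floor. In those 13160 windows the core was in 9.55% and the palindrome in 1.69%. Over all 32851 windows, which include genes below the floor, the flanked form was in 3.77%, the core in 7.15% and the palindrome in 0.974%. Windows of 6 genes are printed to show the motif among proteases, glycosidases, sulfatases, membrane proteins and the pump, with the flanked E-box in capitals. These are the protease gene Ctsd (chr7:142387778-142388077, minus strand), the glycosidase gene Gla (chrX:134600956-134601255, minus strand) and the channel gene Mcoln1 (chr8:3500269-3500568, plus strand). Also printed are the pump gene Atp6v0d1 (chr8:105566015-105566314, minus strand), the sulfatase gene Sgsh (chr11:119355461-119355760, minus strand) and the glycosidase gene Naglu (chr11:101069844-101070143, plus strand). No window of the lipid genes Smpd1, Psap and Gm2a, or of Tfeb, Tfe3, Lyz2 and Grn, held the core. A match describes letters in the window and is not evidence of binding.
Ctsd: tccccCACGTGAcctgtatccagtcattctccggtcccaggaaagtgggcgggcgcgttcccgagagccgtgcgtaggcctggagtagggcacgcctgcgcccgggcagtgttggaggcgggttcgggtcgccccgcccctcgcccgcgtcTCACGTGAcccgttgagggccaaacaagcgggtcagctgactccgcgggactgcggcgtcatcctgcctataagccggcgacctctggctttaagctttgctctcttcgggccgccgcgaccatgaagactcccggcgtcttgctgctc
Gla: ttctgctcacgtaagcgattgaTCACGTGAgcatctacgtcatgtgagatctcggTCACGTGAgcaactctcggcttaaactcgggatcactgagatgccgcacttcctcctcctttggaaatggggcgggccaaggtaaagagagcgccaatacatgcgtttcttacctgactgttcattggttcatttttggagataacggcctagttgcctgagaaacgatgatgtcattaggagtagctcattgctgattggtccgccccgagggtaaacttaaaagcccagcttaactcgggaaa
Mcoln1: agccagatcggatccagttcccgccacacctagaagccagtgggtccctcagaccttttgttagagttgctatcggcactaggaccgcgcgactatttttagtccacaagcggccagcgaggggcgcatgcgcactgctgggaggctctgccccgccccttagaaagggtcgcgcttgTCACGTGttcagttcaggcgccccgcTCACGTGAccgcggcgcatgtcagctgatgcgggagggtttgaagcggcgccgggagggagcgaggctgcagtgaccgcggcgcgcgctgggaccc
Atp6v0d1: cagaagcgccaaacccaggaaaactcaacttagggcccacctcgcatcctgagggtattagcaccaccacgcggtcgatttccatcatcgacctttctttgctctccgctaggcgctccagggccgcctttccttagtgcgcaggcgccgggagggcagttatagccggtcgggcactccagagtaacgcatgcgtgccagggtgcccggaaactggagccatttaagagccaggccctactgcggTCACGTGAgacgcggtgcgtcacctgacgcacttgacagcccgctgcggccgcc
Sgsh: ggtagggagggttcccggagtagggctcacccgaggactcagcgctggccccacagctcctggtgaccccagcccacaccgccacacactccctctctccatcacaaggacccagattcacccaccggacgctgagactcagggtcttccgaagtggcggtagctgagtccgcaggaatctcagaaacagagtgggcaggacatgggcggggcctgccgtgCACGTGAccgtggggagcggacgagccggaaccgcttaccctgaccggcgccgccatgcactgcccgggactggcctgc
Naglu: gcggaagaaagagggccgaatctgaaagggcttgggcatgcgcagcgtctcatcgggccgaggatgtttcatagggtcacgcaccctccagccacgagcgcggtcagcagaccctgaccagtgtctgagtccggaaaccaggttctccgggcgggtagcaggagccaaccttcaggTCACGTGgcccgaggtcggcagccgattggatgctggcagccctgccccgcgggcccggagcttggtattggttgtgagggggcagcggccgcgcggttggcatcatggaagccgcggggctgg
The palindrome began 99 bases before the start in Ctsd, 228 and 195 before it in Gla, 46 in Mcoln1 and 4 in Atp6v0d1, while Sgsh and Naglu held a form flanked on 1 side, 29 and 74 bases before the start. Ctsd and Mcoln1 each held a further flanked form, 245 and 72 bases before the start.

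The arrays did not share one distribution, and the targeted gene did not bear out its label. Tyrobp, read from 1 probe set, stood at 13.27 with IL-4 and 14.03 untreated on the arrays labelled Dap12-KO, against 14.13 with IL-4 and 14.39 untreated in wild type. Where that probe set lies relative to the deleted part is not known, so it may check nothing, and every direction between genotypes rests on the labels. The middle 50% of values spanned 2.54 log2 units for Dap12-KO cells given IL-4, against 3.19 to 3.25 on the others, and the median gene differed by −0.40 between both arrays labelled Dap12-KO and by −0.39 between both IL-4 arrays. For that narrower array the main comparisons are therefore also given after cyclic loess, a scaling that moved these medians to 0.09 and 0.13. All 6 macrophage markers, among them Adgre1 and Csf1r, were above the floor on every array.

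Without treatment, the lysosomal genes read higher on the array labelled Dap12-KO than on the wild type array, with the highest medians in the glycosidases and sulfatases and the lowest in the proton pump. Of the 50 genes 45 differed by more than 0, while 52.6% of all 12767 genes did, and the median member differed by 0.25 against 0.03 for all genes. Most of these differences were small: 2 of 50 members were higher by 2-fold or more and 0 lower, where the shares of all genes were 3.12% and 3.41%. At 1.5-fold, 16 of 50 were higher and 0 lower, against 9.98% and 9.78% of all genes. After cyclic loess 3 of 50 were higher by 2-fold, Scarb2 among them, and 0 lower, against 3.64% and 2.86% of all genes, and 45 were again above 0, against 59.4%. This comparison does not use the narrower array. A ranking of all 4 arrays does use it, and there the untreated Dap12-KO array was highest for 43 of 50 members and 28.7% of all genes. The narrower array was highest for 1 of 50 members and 26.4% of all genes.

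**Figure D1:**
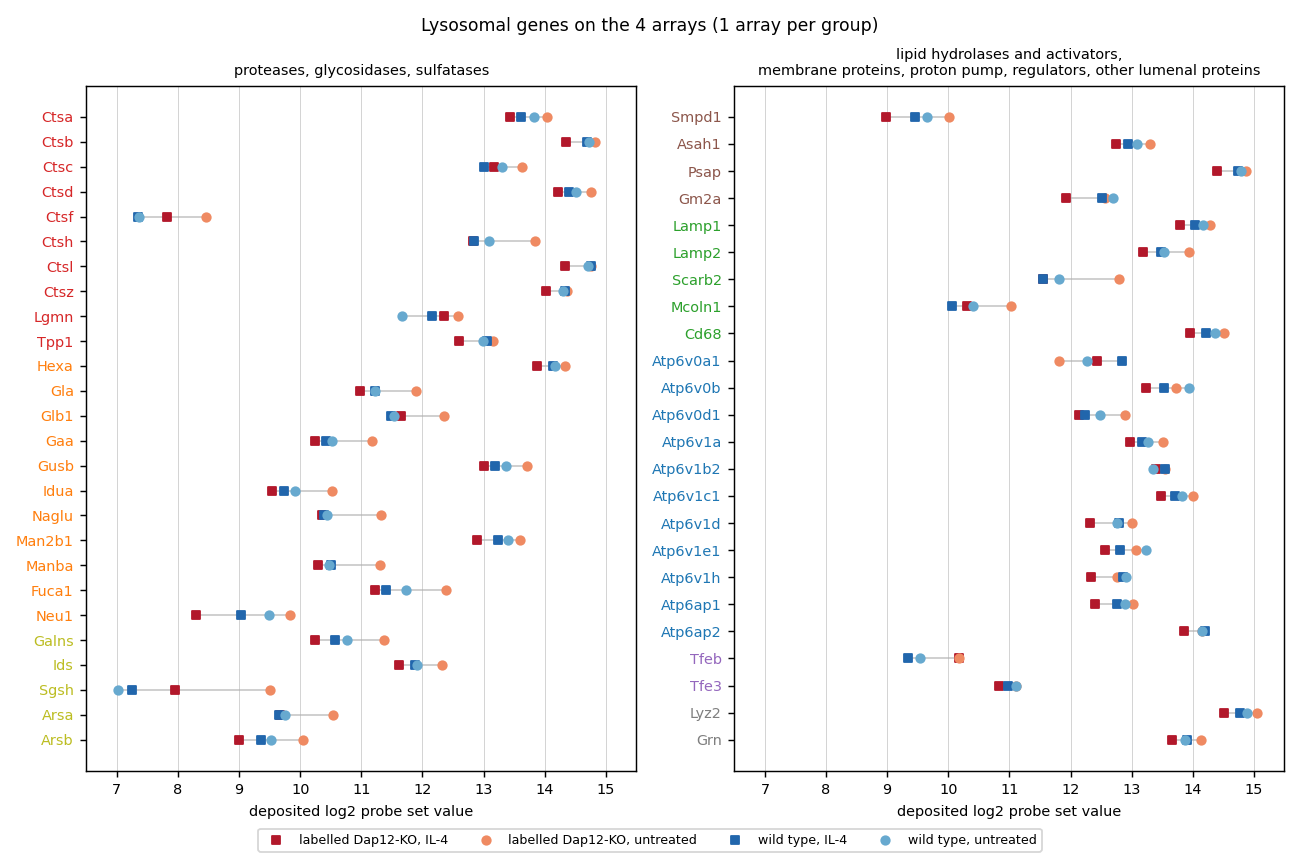
Deposited log2 probe set values (x axis) of the 50 measured lysosomal genes (rows, coloured by role), with 1 point for each of the 4 arrays and a grey line from the lowest to the highest. The untreated array labelled Dap12-KO is rightmost for 43 of 50 genes, and Atp6v0a1, where it is leftmost, stands apart.

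Sulfatases remove sulfate groups from glycosaminoglycans and sulfated lipids, and all 5 read higher on the untreated array labelled Dap12-KO, with a median difference of 0.60. Sgsh, the heparan sulfamidase, read 9.50 on the untreated Dap12-KO array against 7.02 on the untreated wild type array, and 7.95 against 7.25 with IL-4. It was thus far higher on 1 array than on the other 3, and 5.59-fold higher than in untreated wild type. Its second, dimmer probe set differed by 0.24 in the same comparison, so the size rests on 1 of 2 probe sets, and the median over both gave 1.36. Arsa, the sulfatide sulfatase, read 10.53 against 9.75 and Galns, which acts on keratan sulfate, 11.37 against 10.77. Arsb and the iduronate sulfatase Ids differed by 0.53 and 0.42.

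Glycosidases cleave sugars from glycoproteins, glycolipids and glycosaminoglycans. All 11 read higher on the untreated array labelled Dap12-KO, with a median of 0.65 and a range of 0.17 to 0.89. Naglu, which with Sgsh takes part in heparan sulfate breakdown, read 11.32 against 10.43 and Manba, the beta-mannosidase, 11.31 against 10.47. Glb1, the lysosomal beta-galactosidase, read 12.35 against 11.53. In these 3 genes the untreated Dap12-KO value stood alone above the other 3 arrays. Gla, the alpha-galactosidase whose loss causes Fabry disease in humans, differed by 0.67, Gaa, the acid alpha-glucosidase, by 0.65, the fucosidase Fuca1 by 0.65 and the iduronidase Idua by 0.61. The smallest differences were those of Hexa (0.17), Man2b1 (0.20), the sialidase Neu1 (0.34) and the glucuronidase Gusb (0.35).

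All 10 proteases read higher as well, with a median of 0.23, and several of the brightest probe sets differed least. Ctsf, a cysteine cathepsin, read 8.46 on the untreated Dap12-KO array against 7.37 on the untreated wild type array, 2.13-fold higher, and 7.82 against 7.35 with IL-4. The second Ctsf probe set, below the floor on every array, differed by −0.44. Lgmn, the asparaginyl endopeptidase that processes other cathepsins, read 12.58 against 11.67, and Ctsh, an aminopeptidase, 13.83 against 13.08. Ctsl, Ctsz and Ctsb, with untreated wild type values of 14.71, 14.30 and 14.72, differed by 0.04, 0.07 and 0.10. For Ctsb this holds for the brightest of 5 probe sets, and the other 4 differed by 0.26, 0.30, 0.42 and 0.67. Ctsc, which activates granule serine proteases, differed by 0.32, the aspartic protease Ctsd by 0.25, Ctsa by 0.21 and the tripeptidyl peptidase Tpp1 by 0.17.

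Among the 4 genes for lipid breakdown, the sphingomyelinase Smpd1 differed by 0.36, the ceramidase Asah1 by 0.20 and Psap, the precursor of the saposin activators, by 0.09, while Gm2a, the GM2 ganglioside activator, differed by −0.13. Gm2a was the one member outside the proton pump below 0. The 5 membrane proteins had a median of 0.41. Scarb2, the receptor that carries glucocerebrosidase to lysosomes, read 12.79 on the untreated Dap12-KO array against 11.81 in untreated wild type, just under 2-fold, and its other probe set differed by 0.93. Mcoln1, the lysosomal calcium channel TRPML1, read 11.03 against 10.40. The structural proteins Lamp1 and Lamp2 differed by 0.12 and 0.41, and the macrophage sialomucin Cd68 by 0.16. Lyz2, lysozyme of myeloid cells, and Grn, progranulin, differed by 0.17 and 0.26.

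The vacuolar proton pump showed no shared direction in untreated cells. Of 11 measured pump genes 7 read higher and 4 lower in the Dap12-KO cells, with a median of 0.13 and 0 genes at 1.5-fold. Atp6v0d1, the V0 subunit that joins both sectors, was highest with 12.90 against 12.48. The catalytic subunit Atp6v1a differed by 0.23, and its partners Atp6v1b2, Atp6v1c1 and Atp6v1d differed by 0.21, 0.17 and 0.25, with Atp6ap1 and Atp6ap2, accessory proteins, at 0.13 and 0.02. Below 0 were Atp6v1h (−0.15), which regulates the V1 sector, the V1 stalk subunit Atp6v1e1 (−0.16), the ring subunit Atp6v0b (−0.21) and Atp6v0a1 (−0.47). Atp6v0a1, a large V0 subunit of the proton path, read 11.81 against 12.28 and was the 1 member of 50 lowest on the untreated Dap12-KO array.

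The transcription factor Tfeb, a regulator of lysosomal genes, read 10.17 on the untreated Dap12-KO array against 9.54 in untreated wild type, and 10.17 against 9.33 with IL-4. Both arrays labelled Dap12-KO were thus above both wild type arrays in its 1 probe set. Its relative Tfe3 read 11.11 against 11.10 untreated and 10.83 against 10.98 with IL-4.

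The size of the untreated difference went with the brightness of the probe set. Across the 50 members the difference and the mean level correlated at r = −0.65 (rho = −0.64), and at r = −0.16 across all 12767 genes, where genes on the same arrays are not independent. The 2 members below a mean level of 9 were Sgsh and Ctsf. The 11 members with a mean level of 9 to 11 had a median of 0.63, the 6 between 11 and 12 of 0.66, the 9 between 12 and 13 of 0.13, the 12 between 13 and 14 of 0.22 and the 10 above 14 of 0.11. All genes of those ranges had medians of −0.07, −0.09, −0.10, −0.05 and 0.04. Pump genes and other hydrolases thus differ in brightness as well as in role: within 12 to 13 the 6 pump genes had a median of −0.01 and 3 hydrolases or activators 0.17, and within 13 to 14 the 4 pump genes 0.19 and 6 hydrolases 0.27. Whether the roles differ beyond brightness was not tested. Of 56 further probe sets of these genes above the floor, 50 had the sign of the brightest one, as did 34 of the 35 with a mean level of at least 9.

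**Figure D2:**
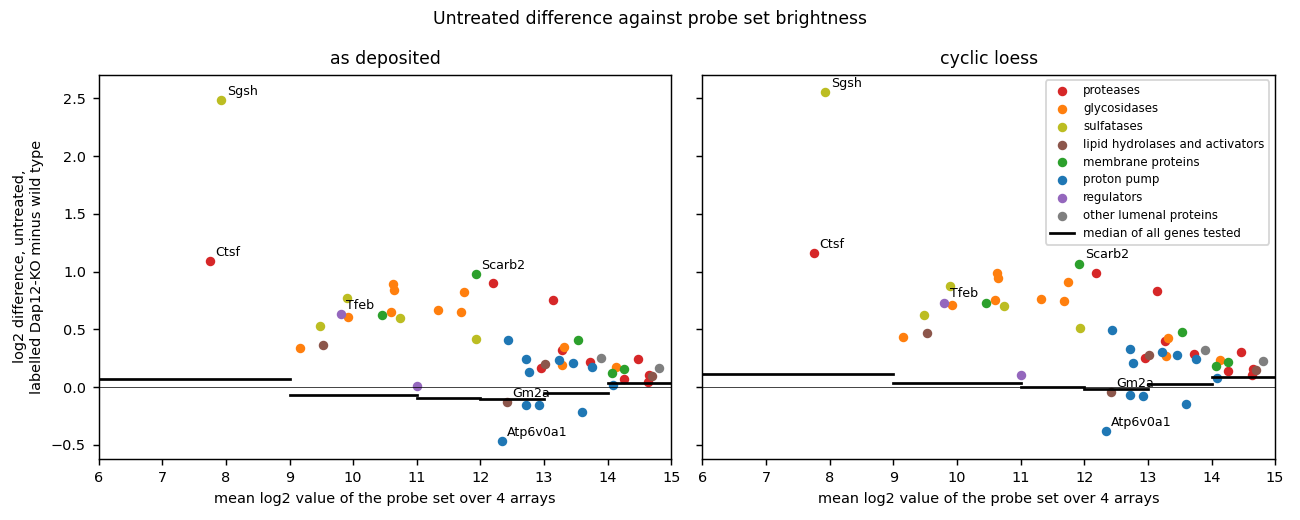
Log2 difference between the untreated array labelled Dap12-KO and the untreated wild type array (y axis) against the mean log2 value of the probe set over 4 arrays (x axis), as deposited and after cyclic loess. Each point is 1 member coloured by role, black lines are medians of all genes tested in each brightness range, and members of 9 to 12 lie mostly above 0.4 while those above 14 lie between 0 and 0.4.

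Markers of macrophages and of other cell types differed in this comparison, in both directions. Of the 6 macrophage markers 4 were above 0 and 2 below, with a median of 0.34: Mertk differed by 1.97, Fcgr1 by 0.82, Adgre1 by 0.48 and Csf1r by 0.21, and Itgam by −0.33 and Cd14 by −0.68. Their mean level was 12.27 on the untreated Dap12-KO array and 11.86 on the untreated wild type array. Of 5 mast cell markers 3 were above the floor, Cma1, Tpsb2 and Cpa3, and differed by 1.34, 0.86 and 0.93, while Mcpt4 and Ms4a2 lay below it on every array. The mean level of the 5 was 7.02 against 6.40. Of 5 B cell markers 4 were measured, with a mean of 8.32 against 7.66 and Ms4a1 at 1.13. Of 7 mesothelium and fibroblast markers 3 were above the floor on at least 1 array, with Col3a1 at −1.30, Col1a2 at −1.26 and Krt19 at 0.13, and the mean level of the 7 was 5.90 against 6.12. All 3 dendritic cell markers above the floor were below 0, with a median of −0.21, and the 5 such neutrophil markers had a median of −0.05. Of the latter, Ngp, Mpo and Elane lay below the floor on both untreated arrays. The part of these cells in the lysosomal differences was not tested.

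With IL-4, lysosomal genes read lower than untreated on the arrays labelled Dap12-KO, in a comparison that uses the narrower array. Below 0 were 48 of 50 members, against 66.1% of all genes, and 9 of 50 were lower by 2-fold or more and 0 higher, against 17.6% and 8.04% of all genes. The share of members lower by 2-fold was therefore near that of all genes. The median member differed by −0.61, the median gene by −0.40. The 6896 genes with a mean level of 6 to 9, where 2 members lay, had a median of −0.04. In the brightness ranges used above, from 9 to 11 upward, members had medians of −0.99, −0.81, −0.55, −0.55 and −0.48. All genes of those ranges had −0.67, −0.54, −0.47, −0.44 and −0.46, so bright genes read lower in general. After cyclic loess 43 of 50 members were still below 0, against 43.8% of all genes, with a median of −0.17 against 0.09, and 1 of 50 was lower and 1 higher by 2-fold, against 5.91% and 9.79%. At 1.5-fold as deposited, 26 of 50 were lower and 1 higher, against 38.8% and 17.4% of all genes.

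The 9 members at 2-fold were Sgsh, Neu1, Scarb2, Fuca1, Galns, Arsb, Smpd1, Manba and Ctsh, none of them a pump gene. Sgsh read 7.95 with IL-4 against 9.50 untreated, a difference of −1.55, and was still 2-fold lower after cyclic loess at −1.05, but not by the median over both probe sets, which gave −0.64. Neu1, the lysosomal sialidase, read 8.29 against 9.83 on the Dap12-KO arrays and 9.03 against 9.49 in wild type, and differed by −0.87 after cyclic loess on the Dap12-KO arrays. The remaining 7 lay between −1.23 and −1.0 as deposited and between −0.36 and −0.69 after cyclic loess. By the median over their 3 probe sets, taken on each array, Arsb and Neu1 read 0.38 and 0.47 higher, and the other probe sets of both are close to or below the floor. By role, the medians were −1.04 for sulfatases, −0.93 for glycosidases, −0.72 for membrane proteins, −0.51 for the pump and −0.50 for proteases, and after cyclic loess −0.37, −0.33, −0.21, −0.08 and −0.14. These differences share the untreated array labelled Dap12-KO with the comparison of untreated cells. The order of the roles may thus repeat in part the high untreated values of that array.

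Cell type markers differed between these arrays too. All 6 macrophage markers were below 0, with a median of −0.79 as deposited and −0.24 after cyclic loess, and with mean levels of 11.26 with IL-4 and 12.27 untreated. Fcgr1, a receptor for immunoglobulin G, was lowest at −2.15, and at −1.49 after cyclic loess. The 3 mast cell markers above the floor had medians of −0.97 and −0.46. Of 7 measured neutrophil markers 5 were above the floor with IL-4 but 2 untreated, Camp and S100a8. Camp differed by 1.49 and 1.54, as deposited and after cyclic loess, and S100a8 by −1.65 and −0.98. Ngp, Mpo and Elane passed the floor only on the Dap12-KO IL-4 array, so their higher values there follow from the filter. Of 7 mesothelium and fibroblast markers 3 were above the floor with IL-4 and 1, Col1a2, untreated. Col1a2 differed by 0.46 and 0.77 and Col3a1 by 1.24 and 1.36. Krt19 (1.18 and 0.94) passed the floor only on the Dap12-KO IL-4 array, so its direction follows from the filter. The part of these cells in the lysosomal differences was not tested.

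In wild type, IL-4 left the lysosomal genes within 1.5-fold as deposited, by the brightest probe set. No member was 2-fold higher or lower (0 of 50 each, against 1.21% and 1.25% of all genes), and none passed 1.5-fold either, against 3.03% and 4.29%. After cyclic loess 0 of 50 passed 2-fold, against 1.3% higher and 1.1% lower of all genes, and 34 were below 0, against 48.8%. With that scaling Atp6v0a1 differed by 0.60, just above 1.5-fold. The median member differed by −0.12 and the median gene by −0.03, with 38 of 50 below 0 against 56.3% of all genes. The lowest were Neu1 (−0.47), the pump genes Atp6v1e1 (−0.42) and Atp6v0b (−0.41) and Mcoln1 (−0.33). The highest were Atp6v0a1 (0.56), Lgmn (0.48) and Sgsh (0.23).

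As deposited, Atp6v0a1 was the 1 member that read higher with IL-4 in both genotypes. It stood at 12.43 with IL-4 against 11.81 untreated on the arrays labelled Dap12-KO, and at 12.83 with IL-4 against 12.28 untreated in wild type, differences of 0.62 and 0.56. Its 3 other probe sets differed by 0.22 to 0.35 and by 0.02 to 0.65, all above 0. After cyclic loess the differences were 1.13 and 0.60, and Atp6v0a1 was then the 1 member higher by 2-fold on the Dap12-KO arrays. With that scaling 4 members were above 0 in both genotypes, against 33.1% of all genes. Besides Atp6v0a1 these were Lgmn (0.31 and 0.52), Atp6v1b2 (0.26 and 0.23) and Atp6ap2 (0.05 and 0.10). As deposited, the other pump genes lay between −0.75 and −0.16 on the Dap12-KO arrays and between −0.42 and 0.19 in wild type.

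**Figure D3:**
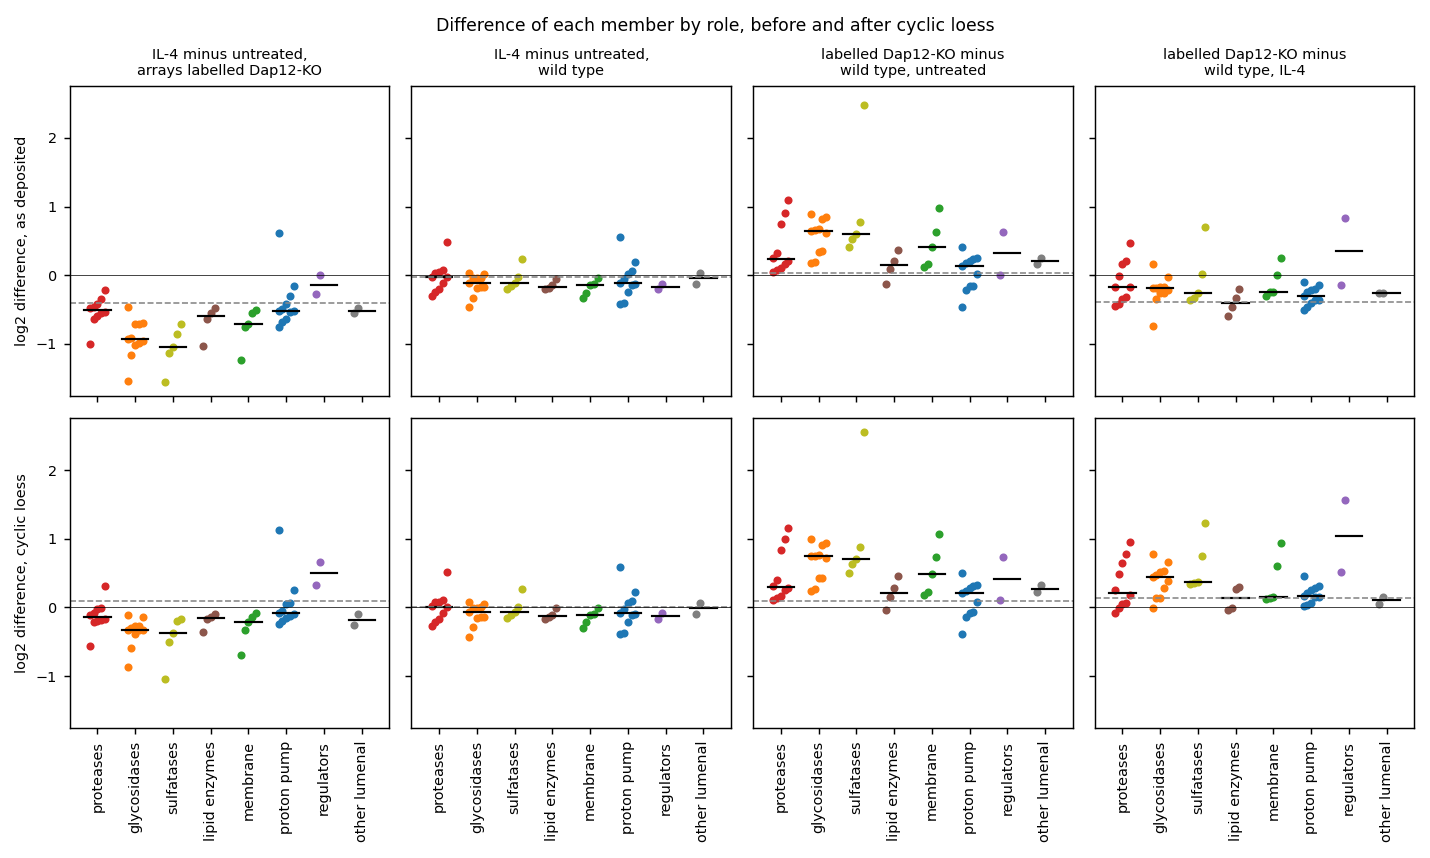
Log2 difference (y axis) of each of the 50 members by role (x axis) in 4 comparisons, as deposited (top) and after cyclic loess (bottom). Points are genes, short black lines the medians of a role and dashed grey lines the median of all genes tested; in the IL-4 comparison on the arrays labelled Dap12-KO the median of all genes is −0.40 as deposited and 0.09 after cyclic loess, and the glycosidases have medians of −0.93 and −0.33.

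Between both IL-4 arrays, the direction of the genotype difference depended on the scaling. As deposited, 41 of 50 members read lower on the array labelled Dap12-KO, against 65.8% of all genes, with a median of −0.25 against −0.39 for all genes, and 0 of 50 passed 2-fold in either direction, against 10.9% higher and 17.6% lower of all genes. At 1.5-fold 2 were higher, against 19.6%, and 2 lower, against 38.9%. In the brightness ranges from 9 to 11 upward, members had medians of −0.19, −0.16, −0.41, −0.20 and −0.29 as deposited. All genes of those ranges had −0.70, −0.58, −0.52, −0.46 and −0.37, so members read less low than equally bright genes. The 6896 genes of 6 to 9, where 2 members lay, had a median of 0.01. After cyclic loess 45 of 50 were above 0, against 59% of all genes, with a median of 0.28 against 0.13. After quantile normalization 47 were, against 54.7% of all genes, also with a median of 0.28. Tfeb (0.84 as deposited, 1.57 after cyclic loess) and Sgsh (0.70 and 1.23) led in both and were the 2 members higher by 2-fold after cyclic loess, where 12.6% of all genes were, and 0 were lower, against 5.33%. Ctsf differed by 0.47 and 0.95 and Mcoln1 by 0.24 and 0.94. Neu1 was lowest as deposited with −0.74, and at −0.01 after cyclic loess. The 6 macrophage markers had a median of −0.19 as deposited and 0.25 after cyclic loess in this comparison. Among neutrophil markers only S100a8 was above the floor on both IL-4 arrays, and it differed by −1.34 and −0.61. Camp, Ngp, Mpo and Elane read higher on the array labelled Dap12-KO and were below the floor on the wild type IL-4 array. The part of these markers in the comparison was not tested.

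The genes with the larger genotype difference untreated were also those with the larger one under IL-4, 2 comparisons that have no array in common. Across the 50 members the differences correlated at r = 0.69 (rho = 0.63) as deposited and at r = 0.75 (rho = 0.79) after cyclic loess. Without Sgsh these r were 0.59 and 0.71, and across all 12767 genes 0.48 and 0.49. The points share the arrays' scaling and the brightness of the probe sets, and whether IL-4 and untreated cells of a genotype came from the same mice is not given in the sources used here. After cyclic loess, 41 of 50 members were above 0 in both comparisons, against 44.8% of all genes, and as deposited 9 were, against 26.2%.

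**Figure D4:**
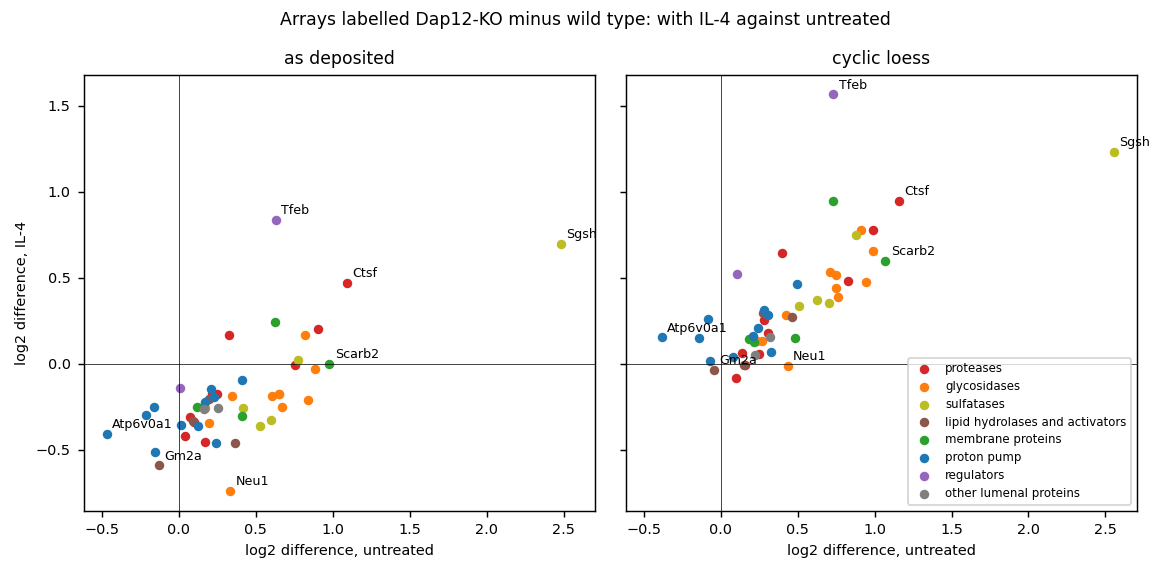
Log2 difference of the arrays labelled Dap12-KO minus wild type with IL-4 (y axis) against untreated (x axis), for 50 members coloured by role, as deposited and after cyclic loess. As deposited 36 of 50 members have opposite signs in both comparisons, and after cyclic loess 41 of 50 lie above 0 in both.

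The IL-4 response of most members was lower on the arrays labelled Dap12-KO than in wild type. The difference of both responses was below 0 for 48 of 50 members, against 66% of all genes, with a median of −0.50 against −0.36 for all genes. At 2-fold, 3 of 50 were lower and 0 higher, against 14.8% and 8.15% of all genes: Sgsh (−1.79), Neu1 (−1.08) and Manba (−1.06). At 1.5-fold 21 were lower, against 35.3%, and 0 higher, against 17.4%. In the brightness ranges from 9 to 11 upward, members had medians of −0.83, −0.75, −0.49, −0.42 and −0.42. All genes of those ranges had −0.61, −0.46, −0.42, −0.39 and −0.39, and the 6896 genes of 6 to 9 had −0.02. After cyclic loess the median was −0.14 against 0.09 for all genes, with 1 of 50 lower by 2-fold (Sgsh) and 0 higher, against 5.58% and 8.9%. All 11 glycosidases and all 5 sulfatases were then still below 0, as were 43.6% of all genes, while of the pump genes 6 were below and 5 above. This difference shares the untreated arrays with the comparison of untreated cells, so it repeats in part the high untreated values of the array labelled Dap12-KO.

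A limma fit of IL-4 over both genotypes, with genotype as a term and 1 residual degree of freedom, called 0 of 50 members at an adjusted p under 0.05, against 1.64% of all genes. Neu1 had the smallest adjusted p, 0.316 (limma, Benjamini-Hochberg), at −1.0 ± 0.42 (SE), lower with IL-4 in both genotypes, and was the 1 member with an unadjusted p under 0.05, which 9.76% of all genes had. With 1 array per group, the residual of this fit is the difference of both IL-4 responses and not scatter between replicates. A response that differs between genotypes thus counts as error, and that error may also be technical. The count of 0 therefore cannot show that members did not respond. Every gene received the same standard error, and the smallest difference called in any gene was 1.41, which no member's mean response reached.

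A list of 50 further lysosomal genes, of which 44 were measured, was read the same way. In untreated cells 4 of 44 were higher in those labelled Dap12-KO by 2-fold and 0 lower, against 3.12% and 3.41% of all genes, and 30 were above 0, against 52.6%, with a median of 0.16 against 0.03 for all genes. The 4 were Pla2g15, the lysosomal phospholipase A2 (1.57), the sialic acid exporter Slc17a5 (1.46), the sorting receptor Sort1 (1.16) and the galactosylceramidase Galc (1.07). Pump subunits with tissue-restricted roles had their own values: Tcirg1, the a3 subunit of osteoclasts and macrophages, differed by −0.21 and Atp6v0d2, known from osteoclast and macrophage fusion, by 0.49. On the arrays labelled Dap12-KO, Atp6v0d2 read 13.17 with IL-4 against 13.33 untreated, and in wild type 13.35 against 12.84. These differences were −0.16 and 0.51 as deposited and 0.29 and 0.54 after cyclic loess, so the first changed sign with the scaling. Ctsk, the osteoclast cathepsin, read 13.07 in untreated Dap12-KO cells against 13.27 in untreated wild type, and Ctss, the cathepsin of antigen presentation, 14.98 against 14.85. The TFEB relatives Mitf and Tfec differed by −0.43 and −0.55 in the same comparison. With IL-4 on the arrays labelled Dap12-KO, 10 of the 44 were lower by 2-fold and 0 higher, against 17.6% and 8.04% of all genes, with a median of −0.56 against −0.40. After cyclic loess 0 of the 44 were lower and 0 higher by 2-fold, against 5.91% and 9.79%, with a median of −0.10 against 0.09. In wild type 0 passed 2-fold as deposited, against 1.21% higher and 1.25% lower, with a median of −0.09 against −0.03.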

How the data were processed

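Total RNA of 4 mouse macrophage samples was measured, 1 array per group. Amplification took 2 cycles and the cRNA carried biotin, per the labels' protocols. What the authors deposited are RMA values on a log2 scale, per the submitters' processing notes, without a version. Amplification can favour the 3' part of transcripts, and bright probe sets can saturate, which can shrink their differences. Of 45101 probe sets 34945 named 1 gene, 932 several, 9160 none and 64 were controls. Symbols were updated by Entrez identifier to RefSeq GRCm38.p6 (34741 matched). The brightest single-gene probe set stood for each of 18193 genes. A gene was counted where its highest value reached the median of all values, 6.39, which 12767 genes did.

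Samples were grouped by title. Log2 differences were taken between arrays, with 2-fold as the threshold and no test. The limma fit over IL-4 used lmFit and eBayes (limma 3.58.1, R 4.3.3). It was also run on simulated data with equal noise on every array and equal changes in both genotypes, unlike these arrays. There it recovered 23 of 50 genes changed by 1 log2 unit, 100 of 100 changed by 2 and 50 of 50 changed by 3, with 7 false calls. Other steps used Python 3.11.15, numpy 2.4.6, pandas 2.3.3 and matplotlib 3.10.9. Alternatives kept the probe set and the genes counted unless they changed that choice. They were no floor, a floor at the 75th percentile (8.38), cyclic loess (3 iterations), quantile normalization, the median over probe sets, 1.5-fold and 3-fold, no genotype term and an intensity trend in eBayes. Cyclic loess over the 3 arrays other than the Dap12-KO IL-4 array was added after seeing the data. The 51 members, their roles and the other lists were chosen with earlier results of these data known. Named genes were the members, Tyrobp, and of other lists up to 4 with the largest difference plus Tcirg1, Atp6v0d2, Ctsk, Ctss, Mitf and Tfec. Printed promoters, brightness ranges, the fifth and later markers of a list and the genes of the closing observations were chosen after values were seen. The files hold no detection calls, and the number of arrays limits the precision.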

Additional observations from a re-analysis of the deposited data

Results flagged for a closer look

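Sgsh and Manba had IL-4 responses of opposite sign in the 2 genotypes that lay at least 2-fold apart. Sgsh, the heparan sulfamidase, differed by −1.55 on the arrays labelled Dap12-KO and by 0.23 in wild type, a difference of responses of −1.79. Manba, the beta-mannosidase, differed by −1.02 and 0.04, a difference of −1.06. With 1 array per group neither difference was tested. After cyclic loess they were −1.32 and −0.47. The median over both Sgsh probe sets gave −0.72, and the second Sgsh probe set had responses of 0.26 and −0.08.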

How the results depend on the processing

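Of the counts of members at 2-fold, those for IL-4 in wild type stayed at 0 in each direction under the 8 other settings run, and no count changed without a floor or with a floor at the 75th percentile. Between both arrays labelled Dap12-KO, the 9 lower members became 1 after cyclic loess, 1 after quantile normalization, 0 at 3-fold and 26 at 1.5-fold, and the 0 higher became 1 after either scaling and 1 at 1.5-fold. In untreated cells, the 2 higher members became 4 after quantile normalization, 4 after cyclic loess over 3 arrays, chosen after seeing the data, 1 by the median over probe sets, 1 at 3-fold and 16 at 1.5-fold, and 3 after cyclic loess. Between both IL-4 arrays, the 0 higher became 2 after either scaling and at 1.5-fold, and the 0 lower became 1 by the median over probe sets and 2 at 1.5-fold. For the difference of responses, the 3 lower became 1 after either scaling, 1 at 3-fold and 21 at 1.5-fold. By the median over probe sets Arsb and Neu1 reversed to 0.38 and 0.47 between both Dap12-KO arrays, and the difference of responses of Neu1 to 0.79, while that of Sgsh shrank to −0.72. The limma fit called 0 members under each of the 7 alternatives, while 0 to 5 of them had an unadjusted p under 0.05, and the lowest adjusted p among members lay between 0.239 and 0.923. Over all genes it called 210, against 7 without the genotype term, 118 with an intensity trend and 0 after either scaling or without a floor. The causes were not tested. No paired analysis by replicate number was possible because each group has 1 array and the labels carry no such numbers, and the genotype term is what compares IL-4 with untreated cells within a genotype.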

Other observations

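Genes that tag and sort lysosomal enzymes differed in both directions in untreated cells. In untreated cells Gnptab, the transferase that makes the mannose 6-phosphate tag, read 10.67 on the array labelled Dap12-KO against 10.52 in wild type, and Gnptg, its regulatory subunit, 6.73 against 6.74. The mannose 6-phosphate receptors Igf2r and M6pr read 10.46 against 10.90 and 12.83 against 12.98. Sort1, a sorting receptor outside that route, read 11.56 against 10.40. With IL-4 on the arrays labelled Dap12-KO, Gnptab, Igf2r and Sort1 differed by −1.26, −1.17 and −1.35, Gnptg by −0.65 and M6pr by −0.43, where the median gene differed by −0.40. After cyclic loess these were −0.61, −0.53, −0.72, −0.72 and 0.05, with the median gene at 0.09. In wild type Gnptab, Igf2r, Sort1, Gnptg and M6pr differed by −0.08, −0.13, −0.58, 0.00 and −0.16. These 5 genes stand in the list of further lysosomal genes and were picked from it after their values were seen.

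The 14 measured members with a flanked E-box (TCACGTG on either strand) had a median difference of 0.64 between untreated Dap12-KO and wild type cells, and the 29 members whose windows lacked it 0.25. Both groups spanned values from below 0 to above 1, and the median of the mean levels was 11.97 in the first group and 12.77 in the second. Their IL-4 differences in wild type had medians of −0.11 and −0.12. No test was made, since genes are not replicates of a condition.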
